A study of Mus musculus with 6 samples.

Results

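The autophagy machinery was taken as 36 genes of the deposited table, matched by symbol, out of 48587 genes in all. It was followed in sorted mouse microglia, the resident macrophages of the brain. The members cover 6 roles: the ULK initiation complex (5 genes), the PI3-kinase complex (5), membrane supply and phosphoinositide binding (5), conjugation (11), the ATG8 proteins (5) and cargo receptors (5). All 36 were found, and all 36 passed the filter on low counts that left 10394 genes for testing. The libraries came from Lyl1 knockout mice (Lyl1 KO, 3 libraries) and from wild-type mice (WT, 3 libraries), all of the C57BL/6 strain and at postnatal day 42. Lyl1 encodes a blood-cell transcription factor of the basic helix-loop-helix class, and the study sets microglia that lack it beside normal ones. Each library was made from the polyadenylated RNA of about 1000 cells. The labels used here do not give the knockout allele, the sorting gate or whether the libraries of a genotype came from separate animals, so the spread between libraries may be technical in part.

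Autophagy encloses cytoplasm, damaged organelles or protein aggregates in a double membrane, the autophagosome, which then fuses with a lysosome. A kinase complex starts the process, a lipid kinase complex marks the membrane with phosphatidylinositol 3-phosphate, and a ubiquitin-like system attaches ATG8 proteins to the growing membrane, where receptors deliver their cargo. In microglia part of the same machinery also acts in the handling of engulfed material, where ATG8 proteins are attached to phagosomes.

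The libraries held 12753945 to 27378614 counts. Lyl1 KO libraries 1 to 3 had 13085, 14923 and 15531 genes with a read, against 13045, 12827 and 15652 in WT libraries 1 to 3. The targeted gene, Lyl1, had 9.03, 12.0 and 14.3 CPM (TMM-scaled CPM, the read count relative to the library total) in Lyl1 KO libraries, against 60.2, 55.6 and 40.0 CPM in WT libraries, so every knockout library lay below every wild-type library and none was at 0. Of the microglia markers, Csf1r was at 10591, 11738 and 10882 CPM in Lyl1 KO libraries and at 11100, 12010 and 10943 CPM in WT libraries, and Tmem119 was at 4675, 5322 and 4530 CPM in Lyl1 KO libraries and at 5272, 5206 and 4774 CPM in WT libraries. The 5 neuron markers summed to at most 7.62 CPM in Lyl1 KO libraries and 0.793 CPM in WT libraries. Xist, which is expressed from the inactive X chromosome of females, was at 349, 0.203 and 412 CPM in Lyl1 KO libraries and at 1.41, 0.397 and 0.382 CPM in WT libraries. Kdm5d, a gene of the Y chromosome, was at 0.0881, 19.6 and 0.0696 CPM in Lyl1 KO libraries and at 7.14, 155 and 15.5 CPM in WT libraries. Lyl1 KO libraries 1 and 3 thus differed from WT in both sex-linked transcripts as well as in genotype. In bulk RNA such as this, fewer cells of a type and less RNA per cell cannot be told apart.

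No member of the machinery told Lyl1 KO and WT microglia apart after adjustment, at this spread between libraries. Ulk2, a kinase of the initiation complex, had the smallest unadjusted p of the 36 members. Among all 10394 tested genes its unadjusted p ranked 43. edgeR's quasi-likelihood test called 0 of 36 members at an adjusted p under 0.05, where the background over all tested genes was 0% higher and 0% lower. At an unadjusted p under 0.05 it found 1 of 36 members, Ulk2, lower in Lyl1 KO (2.78% of members, against 1.67% of all tested genes), and 0 of 36 higher (against 1.16%), where 2.84% of all tested genes passed in either direction. The next smallest unadjusted p of the edgeR test among the members was 0.272, for Atg12. The adjusted p of the edgeR test was 0.9999 for every member. The same test did not call the targeted gene, Lyl1, either. Its log2 fold change (Lyl1 KO over WT) was -2.14 (SE 0.98, edgeR unadjusted p = 0.0609, adjusted p = 0.9999). A lack of calls thus does not show equal levels.

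Direction was also divided. Of the members, 19 had a log2 fold change (Lyl1 KO over WT) above 0, or 52.8% against 48.7% of all tested genes, and 17 had one below 0, where all tested genes gave 51.3%. The median was 0.06, against -0.03 over all tested genes. Medians by role were -0.32 for the ULK complex, 0.25 for the PI3-kinase complex, 0.09 for membrane supply, 0.16 for conjugation, -0.12 for the ATG8 proteins and 0.37 for the receptors. Leaving out single libraries moved each of these medians across 0: -0.29 to 0.42 for the ULK complex, -0.32 to 0.50 for the PI3-kinase complex, -0.54 to 0.67 for membrane supply, -0.12 to 0.41 for conjugation, -0.41 to 0.09 for the ATG8 proteins and -0.09 to 0.76 for the receptors. Of the members, 9 (25%) lay beyond 1 on the log2 scale in either direction, against 38.5% of all tested genes. In 4 members (11.1%) the 3 Lyl1 KO values all lay on 1 side of the 3 WT values, against 11.2% of all tested genes. Ulk1 and Atg4c were the 2 that lay above (5.56% of members, against 5.97% of all tested genes), and Ulk2 and Gabarapl2 the 2 that lay below (5.56%, against 5.19%). These shares are near those of the whole table. With 3 libraries against 3, an exact permutation test of a single gene cannot go below p = 0.1.

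**Figure D1:**
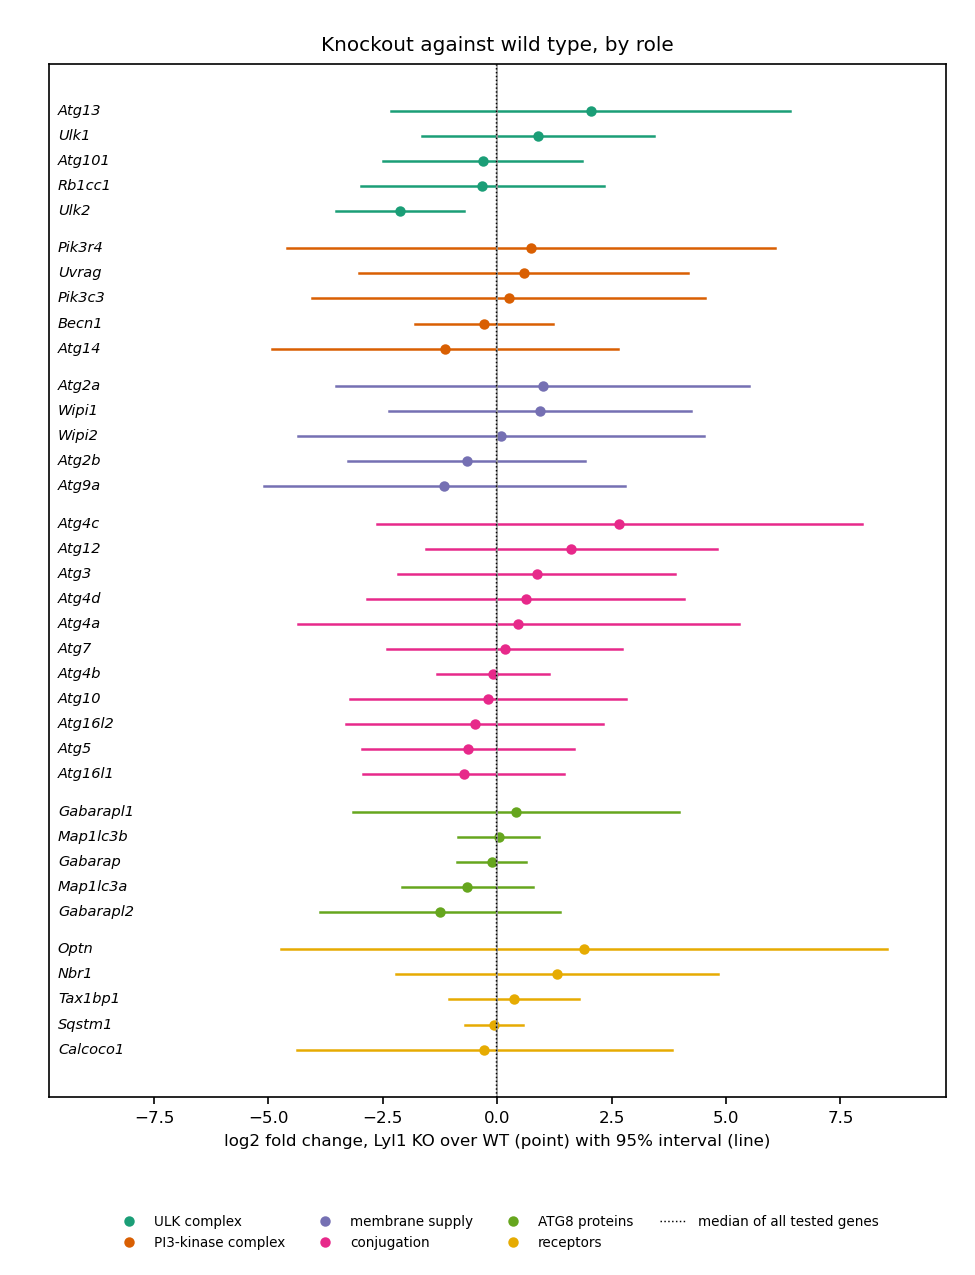
Log2 fold change of each of the 36 autophagy genes, Lyl1 KO over WT, from the edgeR fit (points) with its 95% interval (lines), grouped by role; the dotted line is the median of all tested genes, -0.03. The interval of Ulk2 (-3.52 to -0.73) lies below 0 as a whole, and that of every other member crosses 0.

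In the ULK initiation complex, Ulk2, a serine/threonine kinase that starts autophagy when nutrients are short, was the member with the smallest p. It had 47.5, 70.4 and 71.0 CPM in Lyl1 KO libraries 1 to 3, from 1078, 1386 and 2041 reads. In WT libraries 1 to 3 it had 512, 203 and 109 CPM, from 5811, 5115 and 2285 reads. Every Lyl1 KO library was thus below every WT library, and the knockout libraries lay close together while the wild-type libraries spread 4.70-fold. The means were 63.0 ± 13.4 CPM in Lyl1 KO and 275 ± 211 CPM in WT (SD, n = 3 each), 4.36-fold lower in Lyl1 KO. The edgeR log2 fold change was -2.13 (SE 0.60, unadjusted p = 0.00810, adjusted p = 0.9999), and an exact permutation test, 2-sided, gave p = 0.1, the smallest that 3 against 3 libraries can give.

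The size of the Ulk2 difference rested much on WT library 1. Without that library the log2 fold change was -1.30 (SE 0.49, edgeR unadjusted p = 0.0354). WT library 1 also held the highest sums of 5 oligodendrocyte markers (51.9 to 92.8 CPM in Lyl1 KO libraries and 40.8 to 225 CPM in WT libraries), of 5 endothelial markers (27.2 to 61.6 CPM in Lyl1 KO libraries and 28.5 to 180 CPM in WT libraries) and of 5 markers of border-associated macrophages (0.254 to 10.2 CPM in Lyl1 KO libraries and 0.437 to 95.8 CPM in WT libraries). Most of these sums came from Mag, Pecam1 and Mrc1, at 178, 154 and 95.4 CPM in WT library 1, while the oligodendrocyte marker Mobp and the endothelial markers Cldn5 and Ly6c1 were at 0 in all 6 libraries. The sum of 5 astrocyte markers was 170 to 258 CPM in Lyl1 KO libraries and 410, 402 and 176 CPM in WT libraries 1 to 3, so it was highest in the same 2 WT libraries as Ulk2. Nearly all of it came from Slc1a3, and Gfap and Aldoc were at 0 in all 6 libraries. The part of these markers in the Ulk2 result was not tested. In the 3 libraries with the most genes detected, Ulk2 had 70.4 and 71.0 CPM in Lyl1 KO libraries 2 and 3 and 109 CPM in WT library 3, a log2 fold change of -0.62 (SE 0.53, edgeR unadjusted p = 0.291). In that fit the lone WT library is assumed to vary like the Lyl1 KO libraries. In all 6 libraries, with the number of genes detected as a covariate, the log2 fold change was -1.78 (SE 0.71, edgeR unadjusted p = 0.0432). With the Xist level as a covariate the log2 fold change was -2.08 (SE 0.93, edgeR unadjusted p = 0.0611). Lyl1 KO library 2, in which Xist was near 0 as in WT, had Ulk2 at 70.4 CPM, within the range of the other Lyl1 KO libraries. That is 1 library, and no WT library had Xist at the level of Lyl1 KO libraries 1 and 3. Sex and genotype thus cannot be fully told apart here, and the part of sex in the Ulk2 result was not tested.

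**Figure D2:**
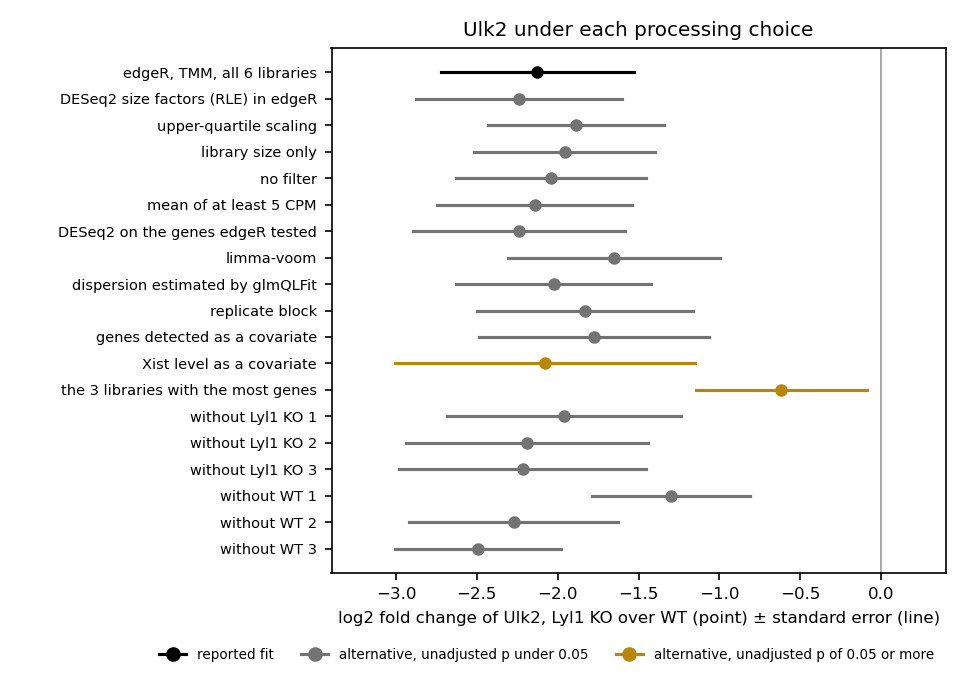
Log2 fold change of Ulk2, Lyl1 KO over WT (points), ± 1 standard error (lines), in the reported fit and in 18 other processing choices. All 19 values lie below 0, from -2.49 to -0.62. With every Lyl1 KO library below every WT library, rescaling or leaving out libraries could hardly change this sign. In 16 of 18 alternatives the unadjusted p was under 0.05, and in the 2 others, drawn in gold, it was not. By alternative, 1.65% to 10.5% of all tested genes lay under that p. The fits share the same 6 libraries, and Ulk2 is shown for its smallest p of 36 members.

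The paralog Ulk1, the kinase of the complex most often studied, was ordered the other way. It had 55.2, 32.9 and 34.2 CPM in Lyl1 KO libraries and 31.4, 5.28 and 29.7 CPM in WT libraries. The groups did not overlap, but Lyl1 KO library 2 and WT library 1 were only a small step apart, and with DESeq2's size factors the groups overlapped. The log2 fold change was 0.88, with a 95% interval of -1.65 to 3.41. Atg13, the adaptor that holds the kinase on its scaffold, had 111, 60.1 and 39.2 CPM in Lyl1 KO libraries, against 0.176, 0.358 and 50.5 CPM in WT libraries. WT libraries 1 and 2 held only 2 and 9 Atg13 reads while WT library 3 lay among the knockout values, and the log2 fold change of 2.04 had a 95% interval of -2.32 to 6.39. This Atg13 value turned on WT library 3: without it the fitted log2 fold change was 7.98 (edgeR unadjusted p = 0.00146, adjusted p = 0.392), a setting in which 10.5% of all tested genes lay under an unadjusted p of 0.05. With limma-voom, which had 6.38% of all tested genes there, it was 5.23 (unadjusted p = 0.0330, adjusted p = 0.722), and in the 3 libraries with the most genes it was -0.01. The other members were the scaffold Rb1cc1 (also called FIP200), at 21.6 ± 10.4 CPM in Lyl1 KO and 27.0 ± 11.8 CPM in WT, and Atg101, which stabilizes Atg13, at 35.2 ± 6.13 CPM in Lyl1 KO and 44.1 ± 32.1 CPM in WT (SD, n = 3 each). Both groups of values overlapped.

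The promoters of Ulk2 and Atg13, the members of the initiation complex with the smallest p, are shown with that of Atg3, the conjugating enzyme described further on, as the member whose promoter holds the longest of the motifs searched. Sequences are RefSeq's for GRCm38.p6, from 250 bases before to 50 bases after the gene's start, 5′ to 3′ on the gene's strand. They lie at chr11:61855043-61855342 (minus strand, Ulk2), chr2:91710543-91710842 (minus strand, Atg13) and chr16:45158579-45158878 (plus strand, Atg3). Capitals mark matches to 3 palindromic motifs, which read the same on both strands: CAGCTG, an E-box form that basic helix-loop-helix dimers of E proteins can bind, CACGTG, the E-box form of MYC and the TFEB family, and TCACGTGA, the core of the element of lysosomal genes that TFEB binds, which contains CACGTG.
Ulk2: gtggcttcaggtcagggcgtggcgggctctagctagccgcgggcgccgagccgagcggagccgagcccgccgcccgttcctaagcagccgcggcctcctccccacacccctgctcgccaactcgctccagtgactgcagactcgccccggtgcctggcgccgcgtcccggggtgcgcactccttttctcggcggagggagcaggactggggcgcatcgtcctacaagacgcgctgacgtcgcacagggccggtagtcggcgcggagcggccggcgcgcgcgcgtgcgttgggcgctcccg
Atg13: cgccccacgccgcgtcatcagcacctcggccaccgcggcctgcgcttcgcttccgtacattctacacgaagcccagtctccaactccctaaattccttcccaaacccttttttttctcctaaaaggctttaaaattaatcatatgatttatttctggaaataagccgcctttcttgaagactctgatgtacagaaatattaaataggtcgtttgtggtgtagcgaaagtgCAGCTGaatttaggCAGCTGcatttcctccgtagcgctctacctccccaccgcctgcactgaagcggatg
Atg3: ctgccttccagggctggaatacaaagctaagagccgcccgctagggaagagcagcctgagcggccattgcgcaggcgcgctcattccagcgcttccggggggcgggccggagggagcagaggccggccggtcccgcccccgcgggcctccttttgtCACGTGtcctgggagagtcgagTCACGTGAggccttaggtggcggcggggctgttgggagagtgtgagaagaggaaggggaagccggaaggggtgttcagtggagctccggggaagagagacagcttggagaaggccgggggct
The Ulk2 window held none of the 3 motifs. In the Atg13 window CAGCTG began 20 and 6 bases before the start, and in the Atg3 window CACGTG began 94 and 71 bases before it, the second inside TCACGTGA. Promoter entries were found for 30 of 36 members. Among these, CAGCTG was present in 6 (20%; Atg13, Atg4a, Atg4c, Map1lc3b, Nbr1 and Sqstm1), against 18.3% of all genes with an entry. CACGTG was present in 4 (13.3%; Atg14, Atg3, Atg5 and Atg7), against 8.09%, and TCACGTGA in 1 (3.33%; Atg3), against 1.12%. These matches describe letters only.

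In the PI3-kinase complex, which makes phosphatidylinositol 3-phosphate, all 5 members overlapped between the genotypes. Becn1, the Beclin 1 subunit, had the smallest standard error of the 5, at 66.2, 39.4 and 94.0 CPM in Lyl1 KO libraries and 130, 60.7 and 54.3 CPM in WT libraries. Its log2 fold change was -0.29, with a 95% interval of -1.80 to 1.21. The Becn1 counts carry a caution, since 43.9% of its exon bases are shared with Cntd1 on the opposite strand. Atg14, the subunit that directs the complex to the site where autophagosomes form, had 18.7, 26.6 and 54.5 CPM in Lyl1 KO libraries, against 173, 0.159 and 46.0 CPM in WT libraries. Both the highest and the lowest Atg14 values were thus wild type, and the log2 fold change of -1.13 (95% interval -4.91 to 2.65) was 0.54 without WT library 1. Uvrag, the subunit of the alternative complex that acts on endosomes, had 98.1, 98.6 and 59.1 CPM in Lyl1 KO libraries and 122, 0.0795 and 49.4 CPM in WT libraries. Only WT library 2, with 2 Uvrag reads, stood apart from the rest. Pik3c3, the catalytic subunit (VPS34), had 30.8 ± 14.4 CPM in Lyl1 KO and 25.9 ± 42.6 CPM in WT. Pik3r4, its regulatory partner (VPS15), had 27.9 ± 24.2 CPM in Lyl1 KO and 16.7 ± 15.0 CPM in WT (SD, n = 3 each). WT library 2 thus held 3 reads or fewer of Pik3c3 and Uvrag and 4 of Atg14, while its Becn1 count was 1527.

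Among the genes of membrane supply and phosphoinositide binding, the lipid carriers ATG2, the lipid scramblase ATG9A and the phosphoinositide-binding WIPI proteins gave 5 overlapping pairs of groups, with the smallest unadjusted p of the edgeR test at 0.516. Atg9a had 0.0881, 40.0 and 10.9 CPM in Lyl1 KO libraries, against 48.2, 47.2 and 18.2 CPM in WT libraries. Lyl1 KO library 1 held 2 Atg9a reads, and 32.6% of the gene's exon bases are shared with Gm29253 and Ankzf1. Wipi1 had 24.1, 12.1 and 22.1 CPM in Lyl1 KO libraries and 7.40, 3.26 and 19.8 CPM in WT libraries. Only WT library 3 reached the knockout range, and the log2 fold change was 0.94, with a 95% interval of -2.36 to 4.23. Atg2b had 30.9, 58.1 and 4.38 CPM in Lyl1 KO libraries, against 23.1, 71.7 and 53.3 CPM in WT libraries, with Lyl1 KO library 3 the lowest. Its paralog Atg2a had 6.38 ± 6.36 CPM in Lyl1 KO and 3.21 ± 2.75 CPM in WT. Wipi2, which recruits ATG16L1 to the membrane, had 50.0 ± 44.6 CPM in Lyl1 KO and 47.1 ± 36.3 CPM in WT (SD, n = 3 each), with 0 reads in Lyl1 KO library 1, where 3 reads would be 0.132 CPM, and 1688 and 1850 reads in Lyl1 KO libraries 2 and 3.

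Of the 11 conjugation genes, which process the ATG8 proteins and attach them to lipid, 6 had a log2 fold change above 0 and 5 below 0, and 0 of 11 reached an unadjusted p under 0.05 in the edgeR test. Atg12, the ubiquitin-like protein joined to ATG5, had 65.1, 26.4 and 89.2 CPM in Lyl1 KO libraries, against 1.15, 7.71 and 49.9 CPM in WT libraries. WT libraries 1 and 2 lay below all Lyl1 KO libraries and WT library 3 lay among them, and the log2 fold change was 1.62 (SE 1.37, edgeR unadjusted p = 0.272). Atg4c, 1 of the 4 cysteine proteases that trim ATG8 proteins, had 8.94, 14.7 and 5.88 CPM in Lyl1 KO libraries and 0.176, 0 and 4.44 CPM in WT libraries. The groups did not overlap, but WT libraries 1 and 2 held 2 and 0 Atg4c reads, and the log2 fold change of 2.67 had a 95% interval of -2.63 to 7.97 (edgeR unadjusted p = 0.276). Atg16l1, which places the ATG12-ATG5 conjugate on the membrane, had 33.3, 47.9 and 19.5 CPM in Lyl1 KO libraries, against 15.2, 90.4 and 62.2 CPM in WT libraries. Its values overlapped, with WT library 1 the lowest of all 6.

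The remaining 8 conjugation genes all overlapped between the genotypes. Atg4b, the most active of the ATG4 proteases, had the smallest standard error of the 11, at 75.2 ± 6.07 CPM in Lyl1 KO and 80.3 ± 21.7 CPM in WT, with a log2 fold change of -0.09 and a 95% interval of -1.32 to 1.13. Atg4d had 27.8 ± 12.1 CPM in Lyl1 KO and 18.1 ± 17.6 CPM in WT, and 19.3% of its exon bases are shared with Kri1. Atg4a, on the X chromosome, had 5.50 ± 5.57 CPM in Lyl1 KO and 3.98 ± 1.45 CPM in WT, with 0 reads in Lyl1 KO library 2. Atg4a counts are uncertain, since 96.0% of its transcript matches Atg4a-ps at 99.3% identity. The enzymes were Atg7, the activating enzyme (47.6 ± 19.6 CPM in Lyl1 KO and 42.6 ± 51.1 CPM in WT), Atg3, the conjugating enzyme for ATG8 proteins (78.6 ± 47.5 CPM in Lyl1 KO and 43.3 ± 41.6 CPM in WT), and Atg10, the conjugating enzyme for ATG12 (23.2 ± 15.8 CPM in Lyl1 KO and 26.6 ± 20.3 CPM in WT). Atg5 had 72.9 ± 74.6 CPM in Lyl1 KO and 114 ± 88.4 CPM in WT, and Atg16l2, the paralog of Atg16l1, had 29.9 ± 5.22 CPM in Lyl1 KO and 42.1 ± 55.6 CPM in WT (SD, n = 3 each). In 7 of these 8 genes, Atg4b being the exception, the SD was 50% of the mean or more in at least 1 genotype.

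**Figure D3:**
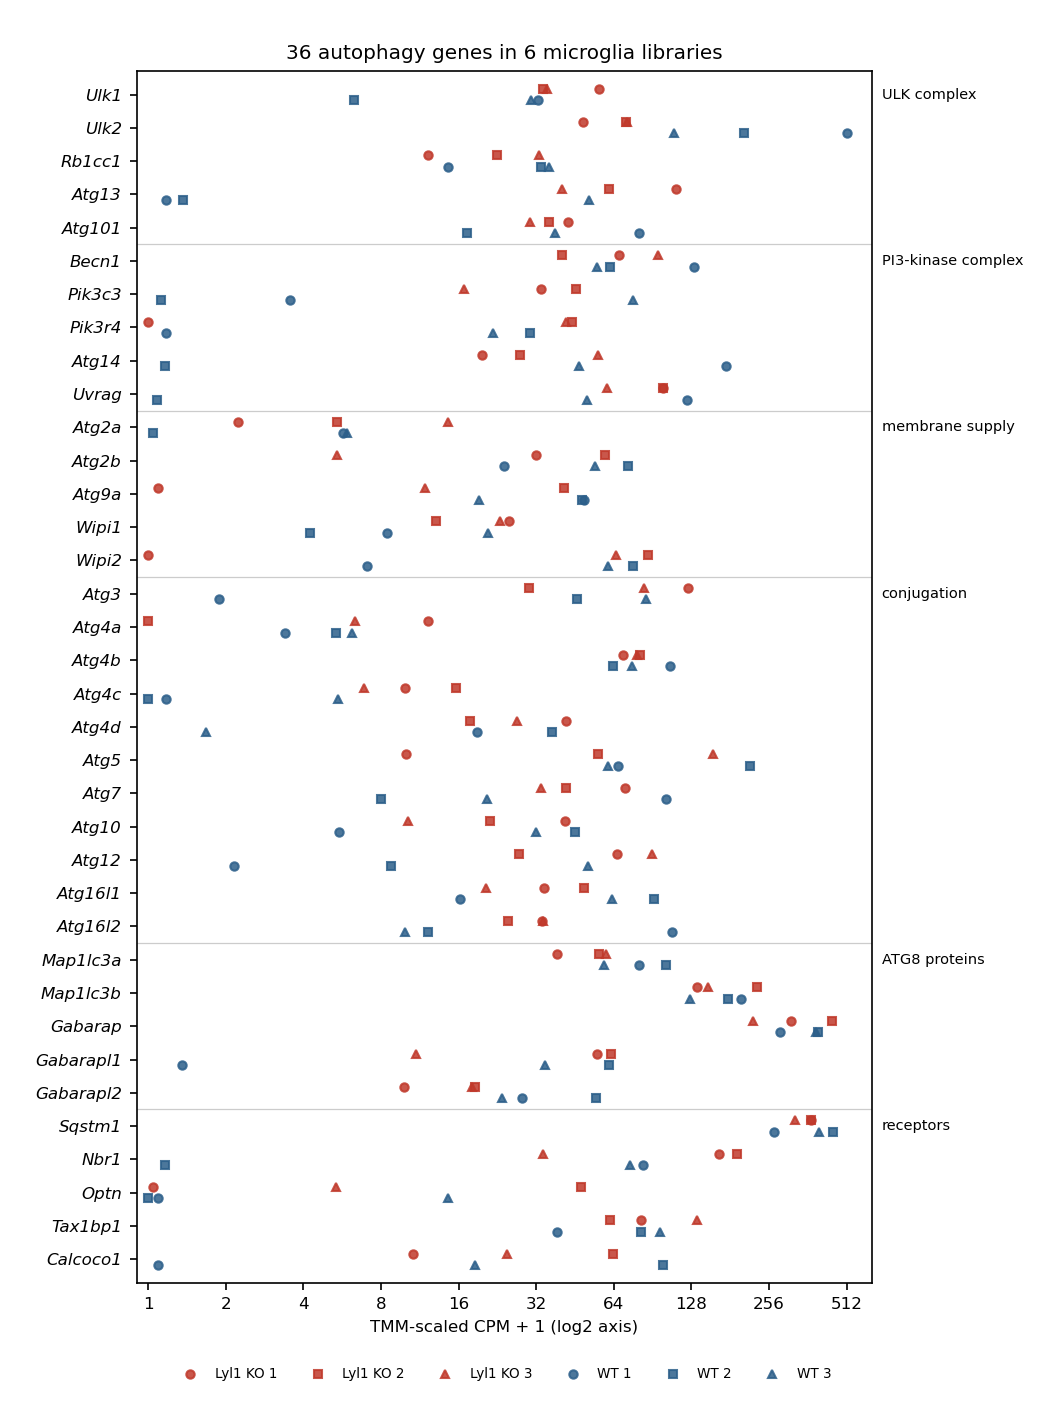
TMM-scaled CPM + 1 (log2 axis) of the 36 autophagy genes in the 6 libraries, with Lyl1 KO libraries in red above WT libraries in blue and 1 symbol per library number. Ulk2 lies at 47.5 to 71.0 CPM in Lyl1 KO and 109 to 512 CPM in WT; Gabarap, Map1lc3b and Sqstm1 lie close together in all 6 libraries, and several genes have single libraries at the left edge.

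The ATG8 proteins, the membrane-bound tags of the autophagosome, included members with narrow spread. Gabarap had 310, 448 and 220 CPM in Lyl1 KO libraries and 282, 394 and 390 CPM in WT libraries. Its log2 fold change was -0.12, with a 95% interval of -0.88 to 0.63, and the groups overlapped throughout. Map1lc3b, the LC3B of autophagy assays, had 134, 229 and 147 CPM in Lyl1 KO libraries and 198, 176 and 125 CPM in WT libraries. Its log2 fold change was 0.03 (-0.04 with DESeq2's size factors), with a 95% interval of -0.86 to 0.92. A difference of 2-fold in either direction lies outside both intervals. Map1lc3a had 37.6, 55.3 and 58.7 CPM in Lyl1 KO libraries, against 79.5, 101 and 57.9 CPM in WT libraries. Lyl1 KO library 3 and WT library 3 were nearly level, and the other Lyl1 KO libraries lay below the other WT libraries; the log2 fold change was -0.65 (SE 0.62, edgeR unadjusted p = 0.322).

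Gabarapl2 had 8.85, 17.6 and 17.1 CPM in Lyl1 KO libraries, against 27.2, 53.7 and 22.7 CPM in WT libraries. All Lyl1 KO libraries lay below all WT libraries, with a log2 fold change of -1.25 (SE 1.13, edgeR unadjusted p = 0.302). About 20.8% of its transcript also matches processed pseudogenes such as Gm3724, at 99.4% identity there, so its counts may be split. Gabarapl1 had 54.1, 61.2 and 9.95 CPM in Lyl1 KO libraries and 0.353, 60.1 and 33.7 CPM in WT libraries, with WT library 1 at 4 reads. Its log2 fold change was 0.41, with a 95% interval of -3.15 to 3.97, and 28.3% of its exon bases are shared with 1700101I11Rik.

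Per kilobase of annotated exon, counting every exon annotated for a gene, Gabarap made up most of the family in every library. It held 67.7%, 67.8% and 59.4% of the summed CPM per kb of the 5 genes in Lyl1 KO libraries and 59.2%, 57.0% and 69.7% in WT libraries, or 65.0% ± 4.79 in Lyl1 KO and 61.9% ± 6.79 in WT (SD, n = 3 each). Map1lc3a came next, with 16.9% ± 6.80 in Lyl1 KO and 21.6% ± 5.03 in WT, and Map1lc3b held 8.47% ± 1.28 in Lyl1 KO and 7.31% ± 2.54 in WT. The ranges of the genotypes overlapped for all 3 genes. Which exons these cells use was not measured, so shares and ranks per kb depend on the annotated length. Map1lc3a was divided by 1.18 kb and Map1lc3b by 7.52 kb. Before this division Map1lc3b was the higher, at a mean of 168 CPM over 6 libraries, against 64.9 CPM for Map1lc3a.

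**Figure D4:**
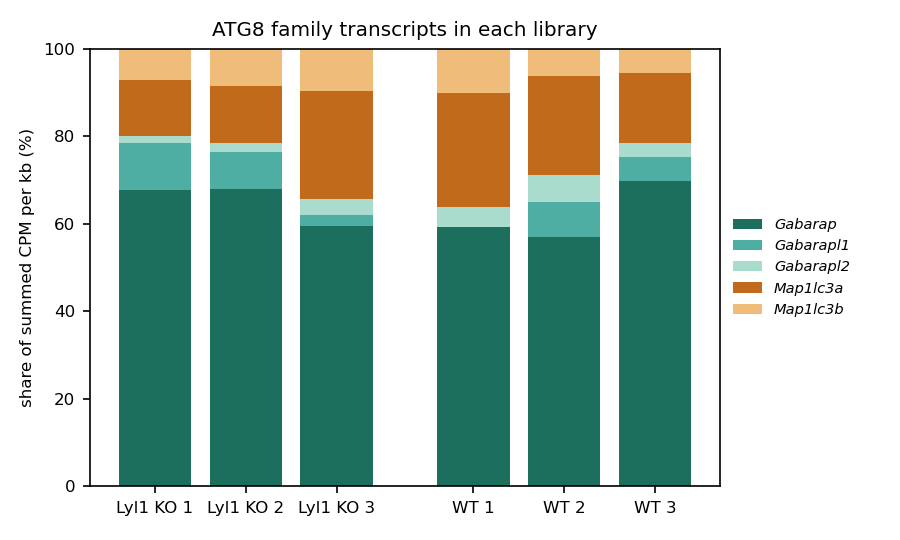
Share of each of the 5 ATG8 genes in their summed CPM per kb of annotated exon (%), 1 bar per library, Lyl1 KO on the left and WT on the right. Gabarap holds 57.0% to 69.7% in all 6 libraries, and Gabarapl1 is nearly missing in WT library 1 (0.0677%).

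The receptors, adaptors that bind cargo and ATG8 proteins, ranged from Sqstm1, with the smallest standard error of all 36 members (0.27), to Optn, with the largest (2.85). Sqstm1 (p62), the ubiquitin-binding receptor whose protein is itself broken down by autophagy, had 372, 371 and 322 CPM in Lyl1 KO libraries and 267, 453 and 400 CPM in WT libraries. Its values overlapped, and the log2 fold change was -0.07 (0.04 with upper-quartile scaling and 0.02 with the library size alone), with a 95% interval of -0.71 to 0.56. A 2-fold difference of Sqstm1 in either direction lies outside this interval. Mrnip, on the opposite strand, shares 17.3% of the Sqstm1 exon bases. Tax1bp1, also a ubiquitin-binding receptor, had 80.7, 61.1 and 133 CPM in Lyl1 KO libraries and 37.6, 80.4 and 95.3 CPM in WT libraries. The groups overlapped, with a log2 fold change of 0.37 and a 95% interval of -1.06 to 1.79.

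Nbr1, a relative of Sqstm1 that binds ubiquitin, had 163, 191 and 32.9 CPM in Lyl1 KO libraries, against 82.4, 0.159 and 72.9 CPM in WT libraries. WT library 2 held only 4 Nbr1 reads, and the log2 fold change of 1.31 had a 95% interval of -2.20 to 4.83. Optn (optineurin), a receptor in the clearance of mitochondria, had 0.0440, 46.8 and 4.35 CPM in Lyl1 KO libraries, against 0.0882, 0 and 13.6 CPM in WT libraries. Optn was thus at 1 read or fewer in 3 libraries of both genotypes and its highest value came from Lyl1 KO library 2 alone; without that library its log2 fold change of 1.90 became -1.05. Calcoco1, a receptor for the endoplasmic reticulum, had 9.60, 62.4 and 23.6 CPM in Lyl1 KO libraries, against 0.0882, 98.7 and 17.5 CPM in WT libraries. The WT libraries held both its highest and its lowest value.

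Levels differed widely across the machinery, and the order given here depends on the annotated exon length of each gene. Ordered by mean CPM per kb over all 6 libraries, Gabarap came first (177 ± 62.3 CPM per kb in Lyl1 KO and 193 ± 34.5 CPM per kb in WT), followed by Sqstm1 (106 ± 8.49 CPM per kb in Lyl1 KO and 111 ± 28.6 CPM per kb in WT) and Map1lc3a (42.8 ± 9.60 CPM per kb in Lyl1 KO and 67.2 ± 18.1 CPM per kb in WT). Gabarap and Sqstm1 did not overlap in WT, and in Lyl1 KO the lowest Gabarap library (120 CPM per kb) lay just above the highest Sqstm1 library (111 CPM per kb). Atg5 and Ulk2 came next and spread too widely to be ordered between them (31.0 ± 31.7 and 10.5 ± 2.25 CPM per kb in Lyl1 KO, 48.3 ± 37.6 and 46.0 ± 35.3 CPM per kb in WT). The lowest of the 36 were Atg4c, Rb1cc1 and Atg2a, the last at 0.830 ± 0.827 CPM per kb in Lyl1 KO and 0.417 ± 0.357 CPM per kb in WT (SD, n = 3 each). Within a role the ranks were far apart: the 5 ATG8 proteins ranked 1, 3, 7, 9 and 13, and the 5 receptors 2, 11, 17, 21 and 31.

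The spread within a genotype was wide for many members. The highest library exceeded the lowest by more than 10-fold for 8 of 36 members in Lyl1 KO (22.2%, against 30.4% of all tested genes) and for 17 of 36 in WT (47.2%, against 50.2%). Libraries under 3 reads were set to 3 reads for these ranges. In WT, Atg14 ranged 1087-fold, with 1959 reads in library 1 and 4 in library 2, and Uvrag (2 reads) and Pik3c3 (3 reads) were likewise lowest in library 2. Of the members, 11 had 3 reads or fewer in at least 1 library. These were 4 in Lyl1 KO library 1 (Pik3r4, Atg9a, Wipi2 and Optn), 1 in Lyl1 KO library 2 (Atg4a) and 0 in Lyl1 KO library 3. WT library 1 had 5 (Atg13, Pik3r4, Atg4c, Optn and Calcoco1), WT library 2 had 5 (Pik3c3, Uvrag, Atg2a, Atg4c and Optn) and WT library 3 had 0. Of all tested genes, 11.6%, 10.8% and 1.54% were at 3 reads or fewer in Lyl1 KO libraries 1 to 3, against 20.6%, 21.7% and 2.34% in WT libraries 1 to 3. The libraries with 0 such members were those with the most genes detected. Across the machinery, 9 members stayed within 3-fold in both genotypes.

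**Figure D5:**
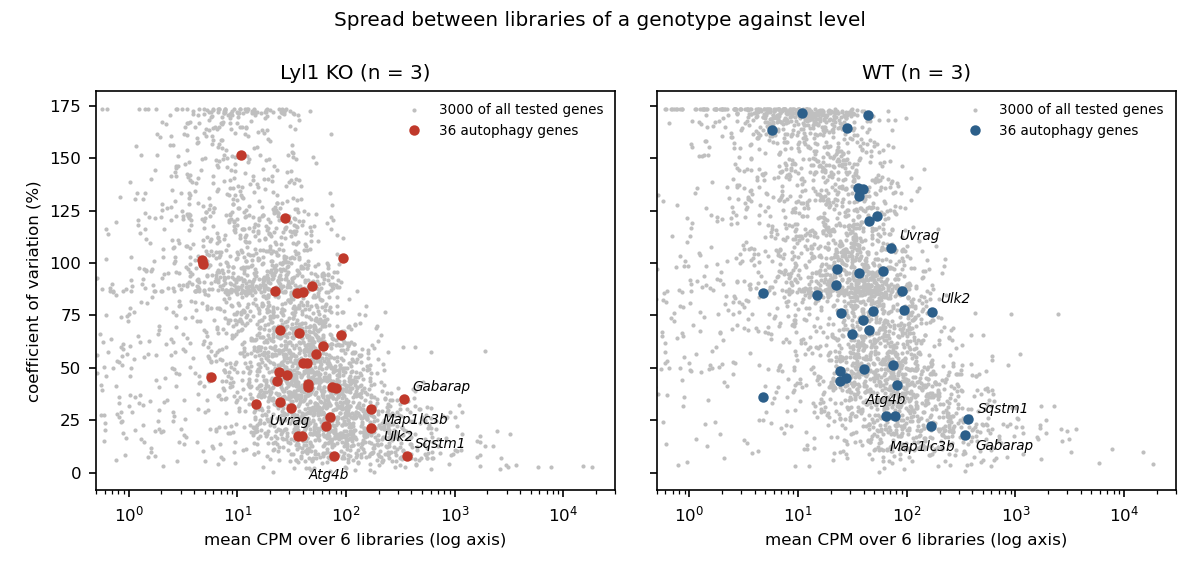
Coefficient of variation (%) over the 3 libraries of a genotype against mean CPM over all 6 libraries (log axis), Lyl1 KO on the left and WT on the right, for the 36 autophagy genes (large points) and a random sample of tested genes (grey). Gabarap and Sqstm1, the only members above 200 CPM, lie low in both panels, while most members at 10 to 50 CPM scatter widely (median 50.3% in Lyl1 KO and 87.1% in WT).

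Of 46 further genes of the pathway, listed around the machinery, all 46 were found and 44 were tested; Mlst8 and Prkaa2, subunits of the nutrient-sensing kinases mTORC1 and AMPK, did not pass the filter. The edgeR test called 0 of 44 at an adjusted p under 0.05, and 1 of 44 (2.27%) lay below an unadjusted p of 0.05, against 2.84% of all tested genes. That gene was 5031414D18Rik, now named Rubcnl, which in human cells binds the PI3-kinase complex and promotes autophagosome maturation. It had 66.3, 66.6 and 118 CPM in Lyl1 KO libraries, against 272, 219 and 136 CPM in WT libraries. Every Lyl1 KO library was below every WT library, with a log2 fold change of -1.32 (SE 0.45, edgeR unadjusted p = 0.0193, adjusted p = 0.9999). Its highest values, like those of Ulk2, were in WT libraries 1 and 2, which had the fewest genes detected (13045 and 12827). Lyl1 KO library 1, with 13085 genes detected, held the lowest value of both genes, though for Rubcnl Lyl1 KO library 2 was almost level. The cause of this pattern was not tested.

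Vamp8, a SNARE protein that helps fuse autophagosomes with lysosomes, was the only other pathway gene whose groups did not overlap (2 of 44 in all, 4.55%, against 11.2% of all tested genes). It had 271, 274 and 347 CPM in Lyl1 KO libraries, against 426, 526 and 376 CPM in WT libraries, and its log2 fold change was -0.57 (SE 0.25, edgeR unadjusted p = 0.0545). Snap29, its SNARE partner, had 14.5, 32.7 and 20.6 CPM in Lyl1 KO libraries, against 103, 40.0 and 22.1 CPM in WT libraries, with a log2 fold change of -1.29. Among the tethering proteins of the HOPS complex, Vps39 had 51.6 ± 26.4 CPM in Lyl1 KO and 95.5 ± 48.8 CPM in WT, and Vps33a had 58.5 ± 57.9 CPM in Lyl1 KO and 25.0 ± 26.3 CPM in WT. Pink1, the kinase that marks damaged mitochondria, had 74.9 ± 44.3 CPM in Lyl1 KO and 40.4 ± 11.0 CPM in WT (SD, n = 3 each). The groups of these 4 genes overlapped. Of the 14 tested genes for fusion with lysosomes, 4 had a log2 fold change above 0 and 10 below 0. Of all tested genes, 51.3% lay below 0. The median of the 14 was -0.51, against -0.03 over all tested genes, and none reached an unadjusted p under 0.05 in the edgeR test. Their median deviations from the WT mean overlapped between genotypes (-0.74, -0.17 and -0.04 in Lyl1 KO libraries, -0.28, 0.08 and 0.26 in WT libraries). Other medians were 0.03 for upstream regulators, 0.58 for PI3-kinase partners, -0.14 for membrane and phagophore proteins and 0.14 for further receptors and adaptors. Over all 44 genes the median was -0.07.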

How the data were processed

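Polyadenylated RNA of about 1000 sorted microglia per sample was amplified with a SMARTer kit and made into Nextera XT libraries, per the labels' protocols; this chemistry does not mark strand and counts no molecules. The authors deposited raw counts of reads per gene symbol. The submitters' processing notes list featureCounts 1.5.1 and Subread, STAR 2.5.2b, CASAVA 1.8.2 and limma 3.28.21, and the build GRCm38, without saying what each did; the labels used here give neither annotation nor strand setting. The 48679 entries include 92 ERCC spike-in sequences, which entered neither totals nor tests, and 48587 genes, 22005 of them with a read.

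Counts were analysed in R 4.3.3 with edgeR 4.0.16: filterByExpr (minimum count 10, minimum total 15), TMM scaling, the quasi-likelihood F test for genotype alone, 2-sided, with Benjamini-Hochberg adjustment over 10394 genes and a threshold of 0.05. Log2 fold changes are Lyl1 KO over WT, with the standard error and 95% interval of that fit. The common biological coefficient of variation was 1.27. Where a library has a count of 0, up to 3 reads remain possible, 0.104 to 0.264 CPM by library; that floor holds for counting error only. Single genes were also compared with exact 2-sided permutation tests. The scripts were tested on simulated data.

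Members and lists were chosen with earlier results of these data known. The text names, per role, the 3 tested members with the smallest unadjusted p (all ATG8 proteins and receptors), the 6 other pathway genes with the smallest p, and Lyl1. Of the pathway genes, 3 were found under older symbols. Exon lengths and overlaps come from GENCODE M21 on GRCm38, and transcripts of other genes with at least 95% identity over 100 bases from BLAST 2.17.0. Promoters are RefSeq's for GRCm38.p6. Alternatives were other scalings and filters, DESeq2 1.42.0, limma-voom (limma 3.58.1), another dispersion estimate, the replicate number as a block, genes detected as a covariate and each library left out. The Xist covariate and the fit of the 3 libraries with the most genes were added after the data were seen. A further marker of the cell type is not reported here.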

Additional observations from a re-analysis of the deposited data

How the results depend on the processing

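In 18 alternatives, 16 of them planned, the count of members at an adjusted p under 0.05 stayed at 0. The log2 fold change of Ulk2 stayed below 0 (-2.49 to -0.62). With every Lyl1 KO library below every WT library, rescaling or leaving out libraries could hardly change that sign. The adjusted p of Ulk2 was 0.0948 at the lowest, from DESeq2, which left 1 of 36 adjusted p-values undefined. Of 522 values of the 29 named genes, 491 kept their direction and 31 did not, and 15 genes had no reversal. The cause of each change below was not tested. Members higher at an unadjusted p under 0.05 numbered 2 of 36 (5.56%) with limma-voom (Atg13 and Atg4c), against 4.58% of all tested genes, and 0 to 2 without single libraries; the 2 (Atg13 and Atg12) were without WT library 3, where 7.78% of all tested genes were higher. The lower count was 0 with the Xist covariate, against 2.76% of all tested genes. It stayed at 1 without single libraries, against 0.805% to 2.69%. For the other pathway genes, 44 in the reported fit, the lower count was 2 with DESeq2's size factors in edgeR, against 1.9% of all tested genes. It was 2 with DESeq2 (against 3.69%) and 2 with limma-voom (against 1.8%). With the replicate block it was 0 (against 0.702%), and with genes detected as a covariate 0 (against 0.548%). Without single libraries it was 0 to 1 (against 0.805% to 2.69%). The higher count was 1 with limma-voom (against 4.58%) and 0 to 1 without single libraries (against 1.03% to 7.78%). Non-overlapping members numbered 1 higher (2.78%) with DESeq2's size factors, against 5.58% of all tested genes. With upper-quartile scaling 3 were lower (8.33%), against 4.51% of all tested genes. Without single libraries 2 to 6 were higher (5.56% to 16.7%) and 2 to 5 lower (5.56% to 13.9%). All tested genes there gave 9.68% to 16.6% higher and 7.57% to 12.9% lower. Ulk2 and Gabarapl2 (lower) and Atg4c (higher) were among the non-overlapping members in each of these settings. Without single libraries this was set in advance. Leaving out a library cannot make groups that lie apart overlap, save through small shifts in scaling. The median log2 fold change of the membrane supply group was -1.75 with limma-voom and -1.03 with the replicate block, that of conjugation 0.95 with limma-voom and that of the ATG8 proteins 0.33 with the Xist covariate. Over all tested genes the median was 0.09 with upper-quartile scaling, 0.20 with limma-voom, 0.18 with the replicate block and -0.27 with the Xist covariate, against -0.03 as reported, so log2 fold changes under those settings are to be read relative to these shifts.

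Reversed log2 fold changes were Atg14 2.33 and Calcoco1 1.42 with limma-voom, Map1lc3b -0.043 with DESeq2's size factors in edgeR and -0.043 with DESeq2, Sqstm1 0.041 with upper-quartile scaling and 0.023 with library size alone, and Calcoco1 0.032 with genes detected as a covariate. With the Xist covariate they were Atg2b 0.27, Gabarap 0.33, Tax1bp1 -0.14, Sqstm1 0.022 and Calcoco1 0.75. With the 3 libraries with the most genes they were Atg13 -0.015, Becn1 0.30, Atg9a 0.50, Wipi1 -0.21, Calcoco1 1.31 and Snap29 0.28. Without single libraries the ranges that cross 0 were -1.69 to 0.54 for Atg14, -0.62 to 0.22 for Becn1, -0.41 to 0.092 for Gabarap, -0.15 to 1.31 for Gabarapl1, -0.23 to 0.19 for Map1lc3b, -1.05 to 8.61 for Optn, -0.0058 to 0.64 for Tax1bp1, -0.25 to 0.11 for Sqstm1 and -1.21 to 1.87 for Calcoco1.

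The replicate numbers shared by the genotypes in the labels showed no pairing in the deviations from the genotype means. Across 6523 genes these deviations correlated with r of 0.00138, -0.0132 and -0.0403 for numbers 1 to 3, a correlation over genes, which are not independent. Libraries of different numbers were not compared in this way. The wide spread between libraries could hide a shared litter or day, so pairing is not excluded. With the replicate number as a block, Ulk2 had a log2 fold change of -1.83 (edgeR unadjusted p = 0.0335), Atg14 of 0.57 and Calcoco1 of 1.37.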

Other observations

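Ratios between paralogs were chosen after their values were seen and are given as a description with no test. In 2 of 6 pairs they did not overlap between the genotypes, and the share among other gene pairs was not computed. The ratio of Ulk1 to Ulk2 is not a separate result. It could not overlap, since every Lyl1 KO library lay above WT for Ulk1 and below WT for Ulk2. Ulk1 per kb over Ulk2 per kb was 1.07, 0.431 and 0.444 in Lyl1 KO libraries 1 to 3, against 0.0564, 0.0240 and 0.251 in WT libraries 1 to 3, so that the kinases were near parity only in Lyl1 KO library 1. Map1lc3a per kb over Map1lc3b per kb was 1.79, 1.53 and 2.54 in Lyl1 KO libraries, against 2.55, 3.63 and 2.94 in WT libraries, with Lyl1 KO library 3 and WT library 1 almost level. The other 4 paralog pairs compared in the same way (Atg16l1 and Atg16l2, Atg2a and Atg2b, Wipi1 and Wipi2, Gabarapl1 and Gabarapl2) overlapped between the genotypes.

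Hbb-bs, an adult beta-globin gene of red blood cells, was at 127, 38.2 and 0.0348 CPM in Lyl1 KO libraries and at 0.705, 0.0397 and 0.0954 CPM in WT libraries.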
